A study of Mus musculus with 2 samples.

Results

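The clustered histone genes are the rows of the deposited expression table whose symbol begins with Hist1h, Hist2h, Hist3h or Hist4h, whatever their level. The table held 67 such genes of 26037. They comprised 6 genes for the linker histone H1, 19 for H2A, 18 for H2B, 11 for H3 and 13 for H4. The symbol was the only criterion, and no measured value entered the choice.

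Polyadenylated RNA came from osteoclasts grown from the bone marrow of C57BL/6 mice aged 6 to 8 weeks, in 1 library labelled control and 1 labelled MMP9 KO, called Control and MMP9_KO here. Both cultures received the same factors: serum at 10%, M-CSF at 5 and then, over 3 days, at 30 ng/ml, and finally RANKL, the cytokine that drives osteoclast formation, over another 3 days. The column headings of the table hold "NCsh" (Control) and "sh" (MMP9_KO), which no label explains, and the way Mmp9 was targeted was not given in the sources used here. Neither group had a replicate, so no test was made, and every difference is one between 2 single libraries.

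Histones are the proteins around which DNA is wound. H2A, H2B, H3 and H4 form the core of the nucleosome, and H1 binds the linker DNA. The clustered genes supply most histone protein during S phase, when newly copied DNA has to be packaged. Their main transcripts have no introns and end not in a poly(A) tail but in a short stem-loop, which the stem-loop binding protein SLBP recognises. Some of the genes also give rise to longer, polyadenylated transcripts, mostly described in cells that leave the cell cycle and differentiate. A library of polyadenylated RNA is therefore meant to favour this second form, and the levels below do not measure the whole histone mRNA of the cells. Which form the reads of these libraries came from was not tested. The series' title concerns proteolysis of the histone H3 tail. Osteoclasts, the cells that resorb bone, make large amounts of the secreted protease MMP9.

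The stem-loop marks where the ordinary transcript ends, so it is shown for some of the members. The letters searched were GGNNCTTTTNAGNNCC, on the transcript strand only. They were present in an annotated GENCODE M21 transcript of 43 of the 67 genes (64.2%) and of 78 of all 21901 protein-coding genes (0.356%). Transcripts annotated only to the stop codon cannot hold them. Hist1h2bc and Hist2h2be, the members with the most reads after Hist1h1c, did not hold these letters in an annotated transcript. Capitals mark the 16 letters of the stem-loop, and 5 bases are given on each side, 5′ to 3′.
Hist1h1c: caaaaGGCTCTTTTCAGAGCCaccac
Hist1h2ac: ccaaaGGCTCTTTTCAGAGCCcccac
Hist3h2a: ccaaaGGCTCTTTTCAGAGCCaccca
Hist2h2ac: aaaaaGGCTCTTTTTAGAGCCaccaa
Hist1h3b: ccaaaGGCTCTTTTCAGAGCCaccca
Hist1h4i: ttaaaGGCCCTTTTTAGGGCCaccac

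The annotated Hist1h1c transcript ran 840 bases beyond its stem-loop, with the letters AATAAA or ATTAAA, which mark poly(A) sites, 26 bases before its end. The Hist3h2a transcript ran on for 1643 bases and the Hist1h2ac transcript for 2010, but the last such signal of Hist1h2ac lay 315 bases before its end. The Hist1h3b transcript, in contrast, ended 51 bases after the stem-loop. Like that of Hist1h2ac, it held no such signal in its last 50 bases. In all, 17 of the 67 genes had an annotated transcript with AATAAA or ATTAAA in its last 50 bases. The 50 genes without it held 63.3% of the summed level of the clustered histone genes in Control and 68.2% in MMP9_KO.

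The library labelled MMP9_KO had low levels of the genes that define the labelled cell type, the osteoclast. Mmp9 itself was at 139 in Control and 3.87 in MMP9_KO, 36-fold lower (30.8 to 42.3). Of 12 compared osteoclast markers 11 were lower by at least 2-fold. The list summed to 7172 in Control and 495 in MMP9_KO. Among them Acp5, the gene of the TRAP enzyme, was at 1828 and 114, Ctsk, which encodes the bone-degrading protease cathepsin K, at 3745 and 42.9, and the integrin gene Itgb3 at 45.8 and 0.475. Of 9 compared macrophage markers 5 were higher and 2 lower, and the list of 12 summed to 1160 and 1476. In that list Emr1 was at 2.46 and 50.5, Cd14 at 15.5 and 166, and Fcgr1 at 11.1 in MMP9_KO with no read in Control. In the macrophage list 4 genes in Control and 1 in MMP9_KO were at 0. The granulocyte, lymphoid, stromal and erythroid markers summed to at most 1.24 per list in either library. In those lists Ly6g, Mpo, Cd3e, Col1a1, Col1a2, Hbb-b1 and Hba-a1 had no read in either library, and Cd3d had 2 reads in Control. The part of this difference in culture makeup in the histone levels was not tested. Summed over all genes of the expression table, Control held 20678441 reads and MMP9_KO 17741432. Levels are normalised read counts, that is, read numbers multiplied by 1 factor per library and not divided by gene length.

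All 5 histone types had a lower summed level in MMP9_KO than in Control, by 2.34-fold to 4.72-fold. Of the 66 genes with a read in either library, 65 were lower in MMP9_KO. The exception was Hist4h4, with 0 reads in Control and 1 in MMP9_KO. Some of the 65 also had very few reads, such as Hist3h2ba with 1 and 0. Among all genes with at least 10 reads in both libraries together, 62% were lower at some size with the levels as deposited. Over the 67 genes the summed level was 241 in Control and 86.8 in MMP9_KO, from 9710 and 3653 reads. As a share of all reads of the library, these were 469.6 and 206 RPM. With the levels as deposited, the fold was 2.78 (95% interval 2.68 to 2.89). Intervals here are exact and cover counting error only, and they are too narrow for sums because copies of a gene can share reads. In bulk RNA, fewer cells of a type and less RNA per cell cannot be told apart.

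**Figure D1:**
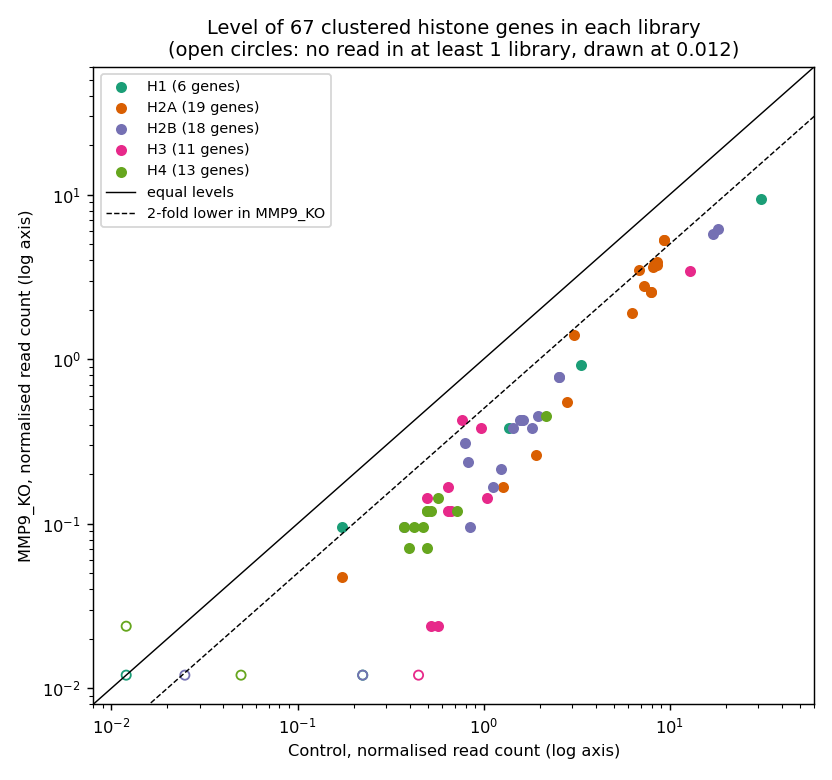
Level of each clustered histone gene in Control (x axis) and MMP9_KO (y axis), as normalised read counts on log axes, coloured by histone type. Solid and dashed lines mark equal levels and a 2-fold lower level in MMP9_KO; apart from the gene with 0 Control reads and 1 MMP9_KO read and the gene without reads in both, every point lies below the line of equal levels.

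On a log2 scale with a pseudocount of 1, which understates differences of low genes, 29 clustered histone genes had a mean level of at least 1 and were compared. Of these, 15 were lower in MMP9_KO by at least 2-fold and 0 were higher. Among all 11126 compared genes 9.58% were lower and 4% were higher by this rule. The median log2 ratio of the 29 was -1.02, between -1.65 and -0.72, and that of all compared genes was -0.16. Of the 29, 10 had a level under 1 in MMP9_KO and at least 1 in Control, so they passed the level filter through the library in which they were higher. Among the 19 genes with a level of at least 1 in both libraries, 9 were lower by at least 2-fold, against 8.4% of all genes so chosen.

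The other 38 genes were under the mean level of 1, where the pseudocount hides most of a difference. Without a pseudocount, and over the genes with at least 10 reads in both libraries together, 55 of 60 clustered histone genes were at least 2-fold lower and 0 were at least 2-fold higher. The shares among all 13408 such genes were 15.2% lower and 7.23% higher. All 60 were lower at some size, as were 62% of all such genes. Of the 60, 24 had fewer than 10 reads in MMP9_KO, and 23 of these passed the filter through Control, where they were higher. Among the 36 members with at least 10 reads in each library, 32 were at least 2-fold lower, against 12% of all genes so chosen.

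These counts moved with the scaling of the libraries and with centring by transcript features. With both libraries brought to the same sum, a shift of 0.29 in log2, all 60 genes were still lower in MMP9_KO and 47 of them by at least 2-fold. By the same rule 44.4% of all genes were lower and 10.7% at least 2-fold lower. With a pseudocount of 1 and a mean level of at least 1, equal sums left 11 of the 29 members at least 2-fold lower, against 6.15% of all genes. Over all compared genes the calls of 1066 lower and 445 higher then became 684 and 674. They were 788 and 562 with the median of all genes at 0, and 791 and 572 with a trimmed mean. The clustered histone genes are GC-rich and short, and such genes had low ratios in these libraries in general. Of the 1297 other compared genes with a GC content of at least 56.9%, the median of the compared members, 16.9% were called lower by the same rule, and their median was -0.47. Of the 35 other genes that were also no longer than 602 bases, 22.9% were lower, with a median of -0.60. Among the 361 compared genes in the bin of highest GC content and shortest transcripts, which held 13 of the members, the median log2 ratio was -0.59 without the members. After centring in bins of GC content and length, 7 of the 26 members with known values stayed at least 2-fold lower, against 6.47% of all genes, and the median was -0.71. The 7 were Hist1h1c (-1.15), Hist1h1d (-1.28), Hist3h2a (-1.31), Hist1h2bc (-1.28), Hist1h2be (-1.02), Hist2h2be (-1.42) and Hist2h3c1 (-1.37). Each has an annotated transcript of at least 1000 bases. Centring in bins of GC content alone left 7 of 26 (6.39% of all genes), and in bins of length alone 6 of 26 (7.07%), so the parts of these features, which go together, cannot be told apart. Centring also sets the median of all genes to 0.

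**Figure D2:**
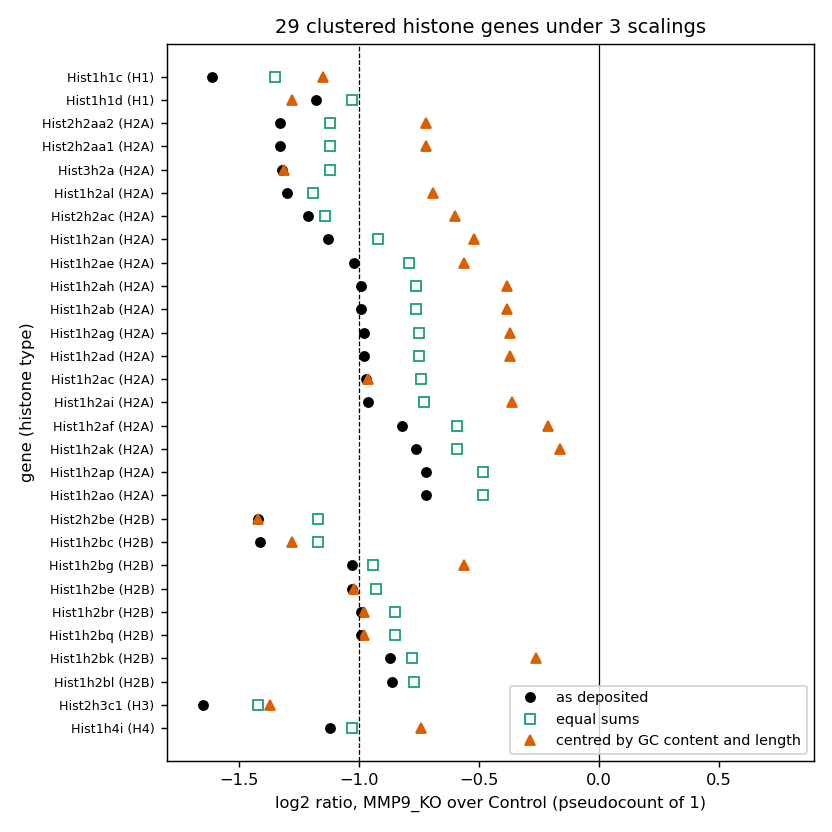
Log2 ratio of MMP9_KO over Control (x axis, pseudocount of 1) for the 29 compared clustered histone genes, listed by type on the y axis, with the values as deposited (circles), with both libraries at equal sums (squares) and after centring in bins of GC content and length (triangles, 26 genes). The dashed line marks 2-fold; the triangles of most H2A copies lie between -0.16 and -0.72, whereas Hist2h2be kept -1.42 after centring.

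The linker histone genes were 36 in Control and 10.8 in MMP9_KO in sum, 3.33-fold lower (2.99 to 3.7). Hist1h1c (ENSMUSG00000036181) had the most reads of all the clustered genes, with 1241 in Control and 396 in MMP9_KO. Its level was 30.8 and 9.41, 3.28-fold lower (2.93 to 3.68). Its coding sequence shared 22% of its stretches of 50 bases with other clustered genes, so most of its stretches occurred in no other member. Hist1h1d, another linker histone gene expressed in many somatic cells, was at 3.35 and 0.926, 3.62-fold lower (2.52 to 5.31). Hist1h1e was under the mean level of 1, at 1.37 and 0.38. The remaining members were near the limit of detection. Hist1h1a had 9 reads in Control and 0 in MMP9_KO, with an exact interval that began at 2.06-fold. Hist1h1b had 7 and 4 reads, and its interval (0.465 to 8.53) included 1. Hist1h1t, the linker histone of the testis, had no read in either library, which allows a level of up to 0.0745 in Control and 0.0713 in MMP9_KO. Per kilobase of the longest annotated transcript, Hist1h1c was at 19.8 in Control and Hist1h1d at 0.452. These values depend on the annotated lengths, 1560 bases for Hist1h1c and 7425 for Hist1h1d.

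The H2A genes had the largest summed level, 123 in Control and 52.4 in MMP9_KO, and the smallest fold, 2.34 (2.23 to 2.47). This sum may count some reads more than once. Hist1h2ao and Hist1h2ap carried the same numbers, 377 reads in Control and 222 in MMP9_KO. Hist2h2aa1 and Hist2h2aa2 likewise both had 320 and 108. Altogether 9 of the H2A genes lay between 320 and 344 reads in Control and between 108 and 163 in MMP9_KO. The coding sequences of 18 H2A genes shared a median of 83.4% of their stretches of 50 bases with another clustered gene. How the authors treated reads that match several copies was not given in the sources used here, and the values of single H2A copies are therefore uncertain.

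With that limit, 17 H2A genes were compared, and 7 were at least 2-fold lower. The copies Hist1h2ao and Hist1h2ap, at 9.37 and 5.27, had the smallest fold, 1.78 (1.5 to 2.11). Hist1h2ac and Hist1h2ae were both at 8.55 in Control, with 3.87 and 3.71 in MMP9_KO. Hist1h2ad was at 8.42 and 3.78, and Hist1h2ag at 8.27 and 3.71. In each library these copies had nearly the same level. Hist1h2ab, at 8.22 and 3.66, and Hist1h2ai, at 8.22 and 3.73, were of the same kind. So was Hist1h2ah, at 8.17 and 3.63. Hist1h2an was at 7.28 and 2.78, 2.62-fold lower (2.11 to 3.27). Hist1h2af was at 6.88 and 3.47, 1.98-fold lower (1.62 to 2.44). Hist1h2ak, which shared 52.8% of its 50-base stretches, was at 3.08 and 1.4, 2.2-fold lower (1.6 to 3.05). The genes of this paragraph lay in the Hist1 cluster, and their folds ran from 1.78 to 2.62.

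The H2A genes outside the large Hist1 cluster had folds from 3.1 to 7.62. Hist2h2aa1 and Hist2h2aa2 were at 7.95 and 2.57, 3.1-fold lower (2.48 to 3.89). Hist2h2ac was at 1.91 and 0.261, 7.32-fold lower (3.87 to 15.3). Hist2h2ab, under the mean level of 1, was at 1.27 and 0.166, 7.62-fold lower (3.44 to 19.9), but the same 51 and 7 reads stand in the table for Gm15444, a gene annotated on the opposite strand at the same place. Hist3h2a was at 6.29 and 1.92, 3.27-fold lower (2.53 to 4.25). It shared 12.3% of its 50-base stretches with other members. However, Hist3h2a overlaps the gene Trim17 on the same strand, which had 245 and 74 reads beside 253 and 81 for Hist3h2a, so the reads of both cannot be told apart. Within the Hist1 cluster Hist1h2al, annotated as a processed pseudogene, was at 2.81 and 0.546, 5.14-fold lower (3.26 to 8.43). Hist1h2aa, the H2A gene of the testis, had 7 and 2 reads.

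The H2B genes were 55.8 in Control and 17.1 in MMP9_KO in sum, 3.26-fold lower (2.99 to 3.55). Hist2h2be (ENSMUSG00000068854) had 692 reads in Control and 244 in MMP9_KO, and its coding sequence shared no stretch of 50 bases with the other members. Its level was 17.2 and 5.8, 2.97-fold lower (2.56 to 3.45). Hist1h2bc was at 18.1 and 6.15, 2.94-fold lower (2.54 to 3.4), although 97.6% of its coding stretches were shared. Together these 2 genes held most of the H2B reads.

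The other 6 compared H2B genes were low. Hist1h2bq and Hist1h2br, a pair of copies with the same 102 and 33 reads, were at 2.53 and 0.784. Hist1h2be was at 1.96 and 0.451, 4.35-fold lower (2.61 to 7.6), and overlaps Hist1h1e on the same strand. Hist1h2bg was at 1.81 and 0.38. Those that were just above the mean level of 1 were Hist1h2bk, at 1.62 and 0.428, and Hist1h2bl, at 1.59 and 0.428. Of the 10 H2B genes under the mean level of 1, the one with most reads was Hist1h2bn, with 63 and 18. Among H2B genes with reads in both libraries Hist1h2bm, with 34 and 4, had the largest fold, 8.89 (3.17 to 34.5). Hist1h2ba, the H2B gene of the testis, had 9 and 0 reads, with an exact interval that began at 2.06-fold.

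The H3 genes were 19.6 in Control and 4.96 in MMP9_KO in sum, 3.95-fold lower (3.39 to 4.63). The row Hist2h3c1 (ENSMUSG00000070392) held most of this, with 517 and 144 reads. Its level was 12.8 and 3.42, 3.76-fold lower (3.12 to 4.55). In GENCODE M21 this identifier belongs to Gm20634, a processed transcript that spans the annotated H3 gene Hist2h3c1 and a copy of the Hist2h2aa genes, so reads of both can count towards it. The other 10 H3 genes were under the mean level of 1, between 0.447 and 1.04 in Control. Of these Hist1h3d had the most reads over both libraries, 39 in Control and 16 in MMP9_KO, and was 2.55-fold lower (1.39 to 4.89). Hist2h3b had 42 and 6 reads and was 7.32-fold lower (3.1 to 21.1). Hist1h3b had 21 and 1 reads and Hist1h3f 23 and 1, with folds of 22 (3.53 to 908) and 24.1 (3.91 to 991). Hist1h3a had 18 and 0 reads, with an exact interval that began at 4.6-fold. The smallest H3 fold was that of Hist1h3g, with 31 and 18 reads, at 1.8 (0.977 to 3.42), an interval that includes 1. Without Hist2h3c1 the summed H3 fold was 4.39.

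The H4 genes had the lowest summed level, 7.18 in Control and 1.52 in MMP9_KO, and a fold of 4.72 (3.59 to 6.29). Hist1h4i was the only H4 gene compared, at 2.16 and 0.451, 4.79-fold lower (2.89 to 8.33). Its annotated transcript runs 330 bases beyond the stem-loop and has a poly(A) signal 21 bases before its end. The 11 H4 genes with at least 10 reads had folds between 3.92 and 6.97. Their reads were few, from 15 to 87 in Control and from 3 to 19 in MMP9_KO, and over all 13 H4 genes a median of 71.2% of the 50-base stretches was shared. Of the H4 genes under the mean level of 1, Hist2h4 had the most reads, 29 and 5. The summed H4 fold without Hist1h4i was 4.7.

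**Figure D3:**
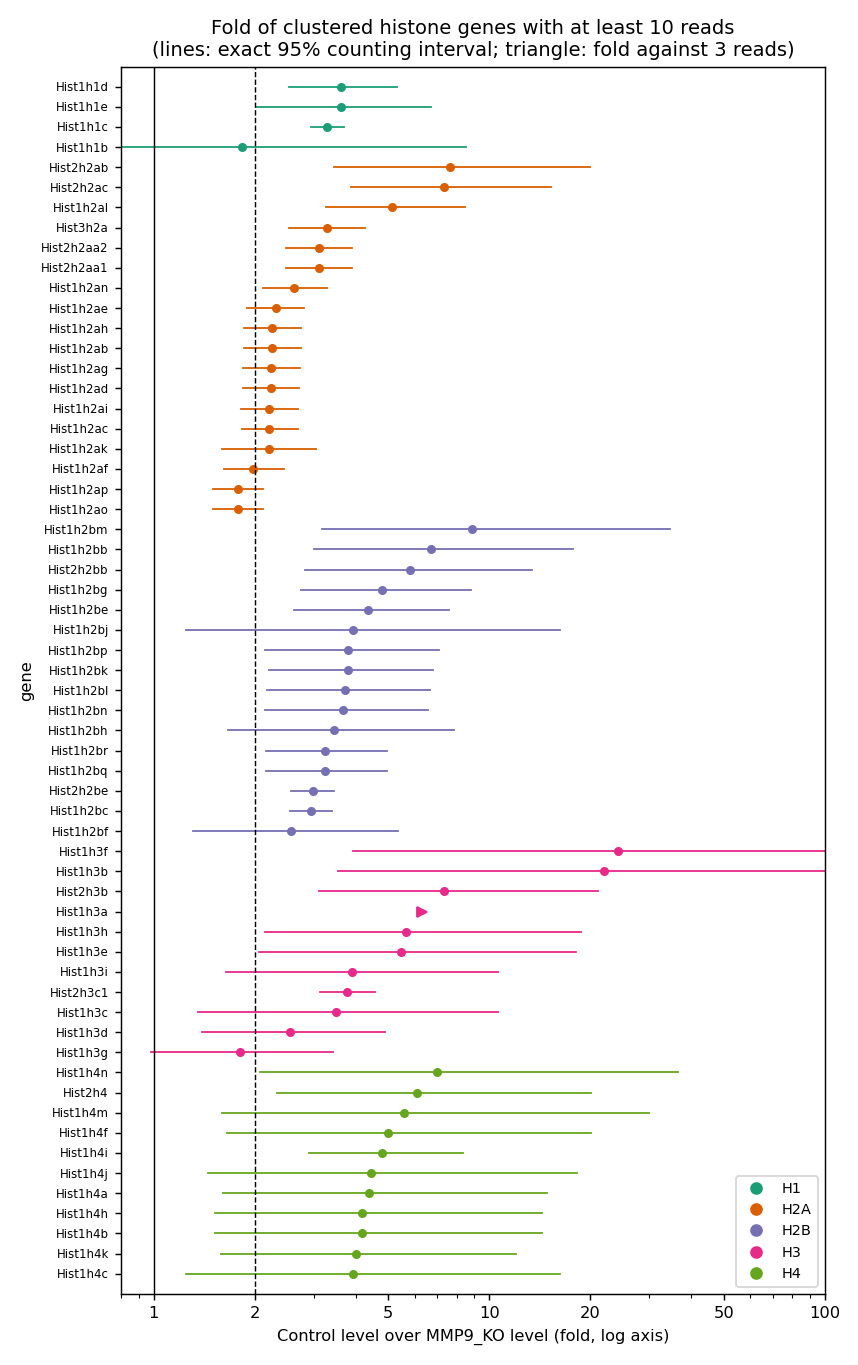
Control level over MMP9_KO level (x axis, log scale) for the 60 clustered histone genes with at least 10 reads, listed by type on the y axis; lines are exact 95% counting intervals, cut at the edges of the plot, and the triangle is the fold of Hist1h3a against 3 reads, 6.28, whose interval begins at 4.6. The H2A copies crowd near 2-fold, the H4 genes lie between 3.92 and 6.97, and the intervals of Hist1h1b and Hist1h3g alone include 1.

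The interval of the summed fold of H2A (2.23 to 2.47) lay below those of the other 4 types, which began at 2.99 for H1 and H2B, 3.39 for H3 and 3.59 for H4. The H3 interval overlapped that of H4, and those of H1, H2B and H3 overlapped one another. These intervals are too narrow, and no test of the difference between types was made. By genomic cluster, the 55 Hist1 genes on chromosome 13 were 183 and 69.6 in sum, 2.63-fold lower, and the 9 Hist2 genes on chromosome 3 were 52.1 and 15.3, 3.42-fold lower. The 2 Hist3 genes on chromosome 11 were 6.31 and 1.92.

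Many H2A and H2B genes lie head to head, so that 1 stretch of DNA lies before both. There were 13 neighbouring pairs on opposite strands with at most 1000 bases between their annotated starts. In the pair Hist1h2ac and Hist1h2bc, 250 bases apart, the folds were 2.21 and 2.94. In the pair Hist2h2ac and Hist2h2be, 238 bases apart, they were 7.32 and 2.97. In 11 pairs an H2A gene faced an H2B gene and both had reads in both libraries. The H2B gene had the larger fold in 10 of these, and Hist2h2ac with Hist2h2be was the exception. H2A copies can share reads, and these pairs are therefore not independent of each other.

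Upstream sequences of 4 members are shown as a description, and regulation shared through them was not tested. They belong to the gene with the most reads, to the H2A side of both pairs named above, and to Hist3h2a. They are the 250 bases before the annotated start in RefSeq's GRCm38.p6, read 5′ to 3′ on the gene's strand. Capitals mark matches on either strand to the CCAAT box (CCAAT), the TATA box (TATAAA), the octamer known from H2B promoters (ATGCAAAT) and the H1 box (AAACACA). None of these motifs contains another.
Hist1h1c (chr13:23738557-23738806, plus strand): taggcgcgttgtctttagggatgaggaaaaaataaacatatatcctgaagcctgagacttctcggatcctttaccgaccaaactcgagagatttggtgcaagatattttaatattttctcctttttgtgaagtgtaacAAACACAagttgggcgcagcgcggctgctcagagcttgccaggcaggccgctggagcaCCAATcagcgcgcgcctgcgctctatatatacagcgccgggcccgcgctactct
Hist1h2ac (chr13:23683960-23684209, minus strand): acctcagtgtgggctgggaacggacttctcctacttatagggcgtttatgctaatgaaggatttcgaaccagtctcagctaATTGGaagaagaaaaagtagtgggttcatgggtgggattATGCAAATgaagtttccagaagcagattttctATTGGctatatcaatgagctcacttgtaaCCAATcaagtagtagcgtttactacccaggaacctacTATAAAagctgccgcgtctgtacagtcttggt
Hist3h2a (chr11:58954435-58954684, plus strand): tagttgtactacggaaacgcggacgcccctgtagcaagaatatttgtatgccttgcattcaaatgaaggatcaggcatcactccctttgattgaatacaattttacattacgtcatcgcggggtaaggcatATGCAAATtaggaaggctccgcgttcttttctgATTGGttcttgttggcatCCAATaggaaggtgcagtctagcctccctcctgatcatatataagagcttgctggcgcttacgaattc
Hist2h2ac (chr3:96220881-96221130, minus strand): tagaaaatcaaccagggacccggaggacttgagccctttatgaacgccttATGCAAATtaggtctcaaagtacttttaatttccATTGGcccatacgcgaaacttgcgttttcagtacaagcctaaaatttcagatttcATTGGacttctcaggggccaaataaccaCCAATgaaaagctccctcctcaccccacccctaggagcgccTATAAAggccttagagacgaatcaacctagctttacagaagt

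RefSeq held 1 promoter each for 59 of the 67 members. CCAAT was present in 49 of them (83.1%), against 33.8% of all 32851 promoters of that length. TATAAA was present in 29 (49.2%, against 12.4%). ATGCAAAT was found in 7 of 17 H2A and 6 of 15 H2B promoters and in 0 of those of H1, H3 and H4, against 1.6% of all promoters. AAACACA was in 5 of 6 H1 promoters, against 6.25% of all. The upstream stretches of H2A and H2B genes that lie head to head can overlap, so 1 match can count for both genes. These promoters are therefore not independent of each other. A match is a description of these letters and does not show that a factor bound.

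After centring, the ratio differed by annotated transcript length, but centring itself subtracts the medians of bins of length and GC content. The 10 compared members with a transcript of at least 1000 bases then lay between -1.42 and -0.96, with a median of -1.21, and the 16 shorter ones between -0.74 and -0.16, with a median of -0.45. With those lacking a centred value included, 15 of the 19 shorter compared members were H2A genes, against 2 of the 10 longer ones. H2A copies can share reads, so length, histone type and shared reads cannot be told apart here. With the values as deposited both classes overlapped, between -1.65 and -0.97 for the long and between -1.33 and -0.76 for the short ones. Other compared genes under 1000 bases had a median of -0.46 as deposited, and longer ones of -0.14. In Control the median level was 2.25 for the 18 members with long transcripts and 0.845 for the 49 others. Per kilobase of the longest annotated transcript, the 18 genes with a transcript of at least 1000 bases had a median level of 0.803 in Control, between 0 and 19.8, and the 49 shorter ones a median of 1.83, between 0 and 20.9. Among H3 genes the only member with a poly(A) signal in its last 50 bases, the row Hist2h3c1, was at 4.35 per kilobase in Control, and the other 10 were between 0.453 and 2.14. Only 2 H1 genes had such a signal, Hist1h1c at 19.8 per kilobase in Control and Hist1h1t without a read. Their median of 9.88, against 0.377 for the 4 other H1 genes, therefore rests on Hist1h1c alone. In the other types the median was lower with the signal. It was 7.54 (2 genes) against 15.1 (17) for H2A, 1.21 (6) against 1.96 (12) for H2B and 0.757 (6) against 1.16 (7) for H4. Over all members the medians were 1.15 with the signal and 1.68 without. The median fold was 3.77 for the 14 genes with such a signal and at least 10 reads, and 3.69 for the 46 without.

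The histone genes outside the clusters were near the median of all genes. The replacement and variant histone genes, many but not all of which are made outside S phase with ordinary poly(A) tails, gave 0 lower and 0 higher of 8 compared. Their median log2 ratio was -0.17. H2afz, the gene of the variant H2A.Z, was at 193 in Control and 214 in MMP9_KO, and H2afv, which encodes a close relative, was at 12.8 and 9.69. For H3f3a and H3f3b, both encoding the H3 variant of replication-independent assembly, the levels were 146 and 101, and 84.7 and 78.5. H2afx, the variant phosphorylated at DNA breaks, was at 24.7 and 21.5. The macroH2A gene H2afy was at 41.5 and 37.4, H2afj at 8.77 and 7.77, and the centromeric variant gene Cenpa at 23.4 and 18.2. The ranges of the compared genes in log2, -1.65 to -0.72 for clustered and -0.52 to 0.14 for variant genes, did not overlap with the values as deposited. After centring by GC content and length, however, the clustered genes ran from -1.42 to -0.16. The longest transcripts of the variants had 1069 to 4018 bases, and the compared clustered genes had a median of 602.

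The factors that make and handle clustered histone mRNA were examined next. Of 23 compared genes for the transcription and stem-loop processing of histone mRNA, 0 passed 2-fold in either direction, and the median was 0.09. Slbp, whose protein binds the stem-loop, was at 29.1 in Control and 44 in MMP9_KO, 1.51-fold higher (1.41 to 1.63). Lsm10, a subunit of the U7 particle that cuts the precursor, was at 3.78 and 2.92, and Snrpd3, which encodes a core protein of the same particle and of spliceosomal ones, at 16.1 and 10.2. Histone chaperones of replication gave 0 past 2-fold of 14, with a median of 0.37. Nasp, which encodes a chaperone of H3 and H4, was at 50.3 and 86.3, and Asf1a, another such chaperone gene, at 6.46 and 9.19.

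Clustered histone genes are transcribed in S phase, so its other genes were compared. Of 34 for DNA replication, 0 were lower and 3 were higher by 2-fold or more, and their median was 0.24. Rrm2, a subunit of the enzyme that makes deoxynucleotides, was at 41.6 and 95.8, 2.3-fold higher (2.17 to 2.44), and E2f2, a transcription factor gene of S phase entry, was at 2.93 and 7.34. The helicase genes Mcm2 and Mcm3 were at 44.4 and 70.4, and 60.1 and 109. Of 14 mitotic genes 0 passed 2-fold, with a median of 0.14: Mki67 was at 325 and 321, Top2a at 199.5 and 222, Bub1b at 63.7 and 102, and Ccnb2 at 49.2 and 33.3. Genes for the poly(A) machinery, which sets what a poly(A) library can record, gave 0 past 2-fold of 13 and a median of -0.08. The poly(A) polymerase gene Papola was at 131 and 113, Papolg at 4.85 and 5.61, Cpsf4 at 51.3 and 28.4, and Pabpc4 at 106 and 74.5. Whether the share of histone transcripts with a poly(A) tail differed between the cultures was not tested.

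**Figure D4:**
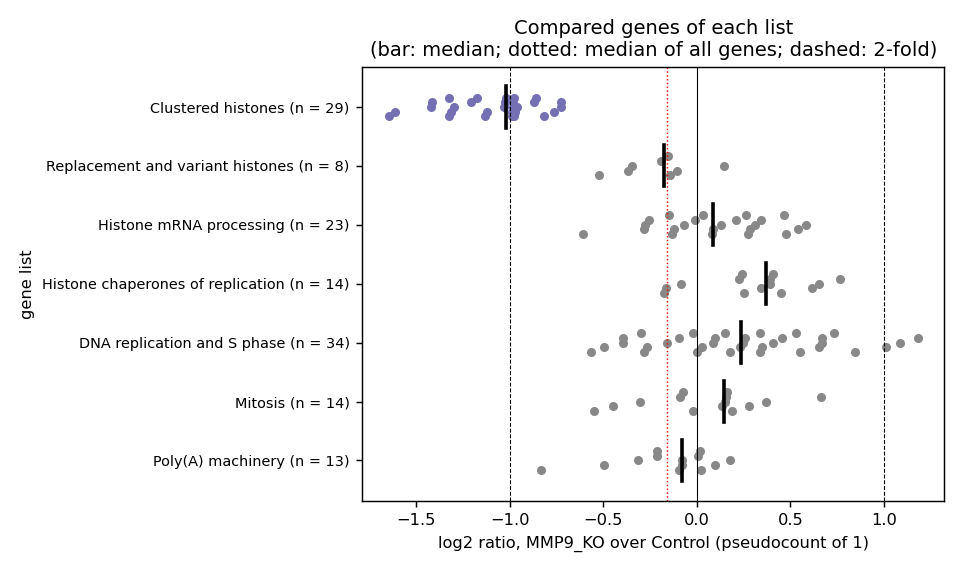
Log2 ratio of MMP9_KO over Control (x axis, pseudocount of 1) of the compared genes of each list (y axis); each point is a gene, bars are list medians, the dotted line is the median of all compared genes and dashed lines mark 2-fold. The clustered histone genes, with a median of -1.02, lie to the left of all 8 variant histone genes with the values as deposited.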

How the data were processed

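The authors deposited 1 table of log2 values per gene for both libraries. Alignment used TopHat and the mouse build mm9, per the submitters' processing notes. The counting program, annotation, strand, treatment of reads that match several copies and normalisation were not given in the sources used here, which limits the H2A copies most. The table is titled normalised RPKM, but after conversion from log2 the values were multiples of a step, 1 for each library (0.0248 in Control, 0.0238 in MMP9_KO) for genes of any length. In both libraries 99.99% of the values above 0 were within 0.05 of a whole read. Values were therefore used as reads times 1 factor, and a gene listed at 0.9 of the step was set to 0.

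Genes with a mean level of at least 1 were compared on log2(value + 1), and 2-fold was the threshold. Folds carry no pseudocount. Intervals are exact (Clopper-Pearson, 95%) and treat reads as independent molecules, which reads without molecular identifiers are not. Where 1 library had no read, 3 reads served as the limit. Every clustered histone gene with a mean level of at least 1 is named, and under it the one with most reads per type. Of other lists the first 2 members and the 2 with the largest log2 ratio are named, and all compared variants. Hist1h3a, b, f and g, Hist2h3b, Hist1h2bm and the testis and remaining H1 genes were named after their values were seen.

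GENCODE M21 (GRCm38, not the build of the alignment) gave transcripts for 55 members by identifier and 12 by symbol; the longest transcript gave length and GC content. Shared stretches of 50 bases were counted among coding sequences. The members and lists were chosen with earlier results of these data known. Alternatives tried were a pseudocount of 0.1 or 5, no filter, a mean of at least 5, 3 scalings (median, a mean trimmed by 30% of ratios and 5% of levels, equal sums), centring in 10 bins of GC content by 5 of length, and sums without the member with most reads. Those added after the data were seen are named with the results on processing. Python 3.11.15, numpy 2.4.6, pandas 2.3.3 and scipy 1.17.1 were used, and the calculations were tested on simulated data.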

Additional observations from a re-analysis of the deposited data

How the results depend on the processing

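No paired analysis was possible because Control and MMP9_KO are single libraries without replicate numbers. Leaving a library out could not be done either. Alternative values numbered 57. None of the medians and summed folds among them changed direction, and for a count of genes a direction is not defined. No clustered histone gene was at least 2-fold higher under any of the 9 alternatives in which that was counted. The number of clustered histone genes at least 2-fold lower, 15 of 29 (9.58% of all genes), became 26 at a pseudocount of 0.1 (11.9%) and 4 at 5 (5.42%). It was 10 with the median at 0 (7.08%), 11 with a trimmed mean (7.11%) and 11 with equal sums (6.15%). It was 8 of 17 with a mean of at least 5 (9.22%), 15 of 66 without a filter (6.56%), and 7 of 26 once centred by GC content and length (6.47%). Added after the data were seen, it was 55 of 60 without a pseudocount (15.2%), 32 of 36 so with at least 10 reads in each library (12%), 9 of 19 with a level of at least 1 in both libraries (8.4%), 14 of 26 with members of the same read numbers counted once (9.57%), 7 of 26 centred by GC content alone (6.39%) and 6 of 26 by length alone (7.07%). The median log2 ratio of -1.02 became -1.58 and -0.60 with pseudocounts of 0.1 and 5, -0.77 without a filter, -0.86 with the median of all genes set to 0, -0.90 with a trimmed mean, -0.85 with equal sums, -0.71 once centred by both features and -0.81 by either alone, and -1.90 without a pseudocount or -1.63 so with at least 10 reads in each library. Pseudocounts act through low levels and the filters through the number of genes by construction, and the cause of the change under centring was not tested. With the median set to 0, a trimmed mean and equal sums, in this order, the summed folds were 2.97, 2.92 and 2.73 for H1, 2.1, 2.06 and 1.92 for H2A, and 2.91, 2.86 and 2.67 for H2B. The H3 fold was 3.24 with equal sums. The H4 fold stayed within its counting interval. Depth limits the H3 and H4 genes most, since all but Hist2h3c1 and Hist1h4i had at most 42 reads in Control.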
